A study of Mus musculus with 11 samples.

Results

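Monocyte cultures with Jagged-1 (Jag1), with or without TGFβ and IL-34, were compared through 4 libraries of a series of 11. The Jag1 only group held a single library (n = 1), and the TGFβ/IL-34/Jag1 group held 3 (n = 3). All 11 samples were bulk RNA sequencing libraries of CD11b-low EpCAM+ cells, sorted on day 6 from cultures of mouse bone marrow monocytes. GM-CSF, which keeps monocytes alive in culture, was present everywhere (20 ng/ml). The 3 TGFβ/IL-34/Jag1 samples, unlike the Jag1 only sample, were also given TGFβ (5 ng/ml) together with IL-34 (8 µg/ml). In both groups Jag1 was displayed by OP9-Jag1, a line of mouse stromal cells engineered with this Notch ligand, so the ligand came with stromal cells that the sort had to remove. The other 7 samples all received GM-CSF, TGFβ and IL-34. They were TGFβ/IL-34 (n = 2), TGFβ/IL-34 with the Ahr ligand FICZ (n = 2), and TGFβ/IL-34/Jag1 with FICZ (n = 3). The labels describe all 11 samples as monocytes kept together with OP9 cells, and they give neither the strain nor the age of the mice.

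Langerhans cells are phagocytes that live in the epidermis, take up antigen there and can carry it to lymph nodes. TGFβ signals through a pair of receptor kinases to the Smad transcription factors, and Langerhans cells are known to need it. IL-34, made by keratinocytes, is a ligand of the receptor encoded by Csf1r and keeps Langerhans cells alive in the skin. Notch receptors are cleaved when a ligand such as Jag1 on a neighbouring cell binds them, and the freed part enters the nucleus and switches on target genes.

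Of 21860 genes in the table, 13095 had a normalized count of at least 10 in at least 2 of the 11 samples and were described. For each gene the value of the Jag1 only library was set against the range of the 3 TGFβ/IL-34/Jag1 libraries. A gene was termed called when that single value lay outside the range and at least 2-fold from the nearest of the 3, with 1 added to every value. With 1 library in a group there is no replicate check on that side and no p-value is given. Whatever set this library apart from the others, treatment or not, cannot be told apart from the absence of TGFβ and IL-34. The labels do not say whether the 3 replicates came from separate animals, but they carry 3 different experiment codes, and replicate 1 shares its code with the Jag1 only library. Throughout, the value of the Jag1 only library is given first, then those of TGFβ/IL-34/Jag1 replicates 1, 2 and 3, all in normalized counts. These values are not divided by gene length, so they compare samples and not genes.

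The 4 libraries were of like depth, with totals of 22.5 to 24.2 M normalized counts and an estimated 20.7 to 23.4 M reads. Mitochondrial genes took 1.17% of the Jag1 only library and 0.895% to 2.42% of the others. Across genes, log2 values of the Jag1 only library correlated with those of the 3 others at Pearson r = 0.886 to 0.896, and the 3 with each other at r = 0.963 to 0.972, a description over genes, which are not independent. Ptprc, the pan-leukocyte marker CD45, was present in all 4 (7315 against 3482, 4323 and 4749.8). Itgam, which encodes CD11b, the marker gated as low, lay within the range of the 3 (4963 against 4862, 9886 and 19741). Epcam, the gene of the marker gated as positive, was present but was lower in the Jag1 only library than in any other of the 11. Of 14 stromal and matrix genes 12 passed the filter, of which 2 were called higher and 3 lower, against 8.22% and 10.9% of all genes. The summed level of the 14 was 2126 in the Jag1 only library, 682 to 1493 in the 3, and 812 to 17304 in the other 7. The stromal gene Lum was at 0 in all 4 libraries, and Adipoq, Cfd and Plin1 of adipocytes did not pass the filter. The part of stromal RNA in the differences below was not tested.

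The single library lay outside the range of the 3 for 9769 of the 13095 genes (74.6%). With TGFβ and IL-34, 4807 genes (36.7%) were higher and 4962 (37.9%) were lower, and 3326 lay within the range. At least 2-fold from the nearest replicate, 1077 genes (8.22%) were called higher and 1430 (10.9%) lower. A distance of at least 4-fold was met by 377 higher and 549 lower genes, and one of at least 16-fold by 60 and 74. The median log2 fold change over all genes that passed, mean of the 3 against the single library, was −0.00897. The normalization of the libraries aims at a value near 0, so this is no result about the groups. As values just inside and just outside the 2-fold line, Tgfbi stood 2.00-fold from its nearest replicate and was called, whereas the protease gene Ctsl stood 1.98-fold away and was not.

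**Figure D1:**
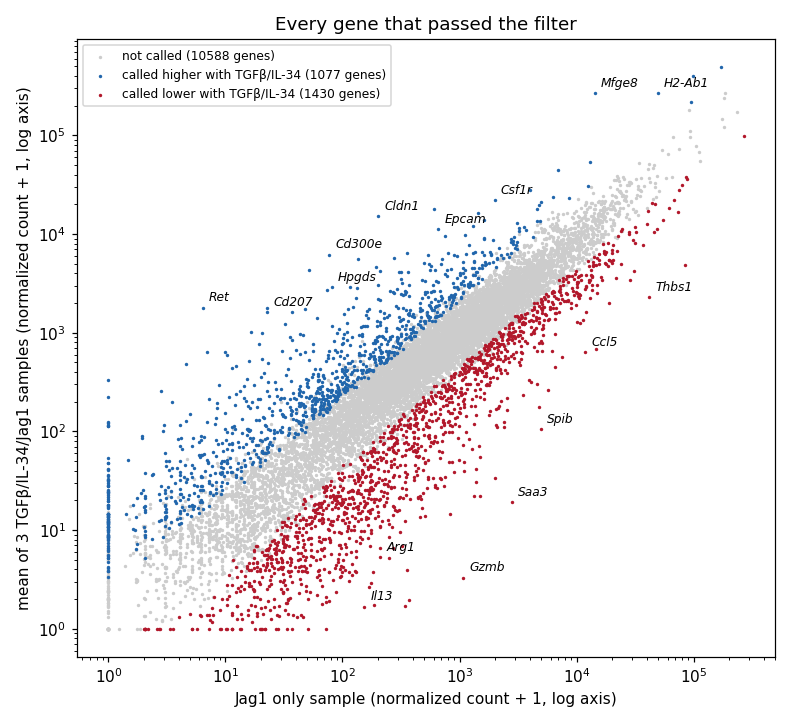
Each point is 1 of the 13095 genes, with its normalized count + 1 in the Jag1 only library on the x axis and the mean of the 3 TGFβ/IL-34/Jag1 libraries + 1 on the y axis, both on log axes. Blue marks the 1077 genes called higher with TGFβ and IL-34 and red the 1430 called lower. Cldn1 and Ret lie far above the diagonal, and Gzmb, Saa3 and Spib far below it.

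Langerhans cell genes were higher with TGFβ and IL-34, and their list had the highest median of the 30 lists with genes that passed. Of 13 genes on this list, 8 were called higher and 0 lower, against 8.22% and 10.9% of all genes, and their median log2 fold change was 4.04. The genes called were Cldn1, Cd207, Lpar3, Ptgs1, Hpgds, Mfge8, Epcam and Ahr. The list was drawn from what the study and the field name as Langerhans cell genes, and some of it was named in the study for these samples, so its direction is not independent evidence. The promoters of 4 of them are shown first, because these genes carry the comparison by the size of their difference or, for Epcam, by their use in the sort. They are the 300 bases around the RefSeq start of each gene, 250 before it and 50 from it on, in build GRCm38.p6, printed 5′ to 3′ on the strand of the gene. Capitals mark CAGAC or GTCTG, the Smad box, the short sequence that Smad proteins can bind.
Cldn1 (chr16:26371790-26372089, minus strand): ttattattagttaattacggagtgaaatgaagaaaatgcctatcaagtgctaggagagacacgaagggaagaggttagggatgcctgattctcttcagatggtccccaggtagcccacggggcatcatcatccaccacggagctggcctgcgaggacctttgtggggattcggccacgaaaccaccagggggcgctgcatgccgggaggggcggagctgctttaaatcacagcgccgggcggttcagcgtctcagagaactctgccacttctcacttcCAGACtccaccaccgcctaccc
Cd207 (chr6:83677808-83678107, minus strand): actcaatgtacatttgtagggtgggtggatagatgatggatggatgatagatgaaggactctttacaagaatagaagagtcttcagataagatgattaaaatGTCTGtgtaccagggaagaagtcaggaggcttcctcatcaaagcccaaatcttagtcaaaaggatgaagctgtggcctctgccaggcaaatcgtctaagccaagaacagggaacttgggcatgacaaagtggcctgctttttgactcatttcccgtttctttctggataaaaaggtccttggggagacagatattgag
Mfge8 (chr7:79149011-79149310, minus strand): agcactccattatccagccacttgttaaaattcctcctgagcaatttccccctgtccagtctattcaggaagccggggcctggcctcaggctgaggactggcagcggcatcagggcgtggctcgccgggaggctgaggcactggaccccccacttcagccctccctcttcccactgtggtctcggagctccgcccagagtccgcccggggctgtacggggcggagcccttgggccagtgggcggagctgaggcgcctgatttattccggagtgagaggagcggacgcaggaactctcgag
Epcam (chr17:87635729-87636028, plus strand): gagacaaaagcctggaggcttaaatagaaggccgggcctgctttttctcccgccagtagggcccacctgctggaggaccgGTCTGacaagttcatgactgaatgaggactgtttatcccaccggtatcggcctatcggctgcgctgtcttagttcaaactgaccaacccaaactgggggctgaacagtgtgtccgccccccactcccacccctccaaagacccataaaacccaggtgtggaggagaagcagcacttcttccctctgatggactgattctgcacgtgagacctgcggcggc

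The window of Cldn1, Cd207 and Epcam each held 1 such box, and that of Mfge8 held 0. A box of 5 letters on either strand is common, and 49.6% of all 32851 RefSeq windows of this length held one. Of the 30 genes named higher further on, 24 had a window in the table, and 18 of their 28 windows (64.3%) held a box. Of the 30 named lower, 21 had a window, and 13 of 31 windows (41.9%) held one. The longer PU.1 site GAGGAAGT or ACTTCCTC was in 0 of 28 and 1 of 31 windows, against 3.20% of all. A Runx site, TGTGGT or ACCACA, was in 3 of 28 and 5 of 31, against 16.8% of all. The window of Mfge8, which belongs to neither set, held 1 Runx site. The GAS element TTCNNNGAA, its own reverse complement, was in 1 of 28 and 2 of 31, against 8.30%. A match says only that these letters stand in the window, and binding was not measured.

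Cldn1, the tight junction protein claudin-1, was at 199.9 against 14946, 15498 and 14743 (chromosome 16, 26175392 to 26190596, GRCm39). The 3 replicates lay within a few percent of each other at 15062 ± 391 (SD, n = 3), and the single library was 73.4-fold below the nearest. Cd207 encodes langerin, the lectin that forms Birbeck granules and serves as the defining marker of Langerhans cells, and it was measured at 21.8 against 1366, 1784 and 1699 (chromosome 6, 83648190 to 83654839). Its 3 values were alike and all far above the single one, with a log2 fold change of 6.14. In the other 7 samples, however, Cd207 ranged from 6.21 to 157, so the Jag1 only value was not the lowest of the series.

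Mfge8, the secreted bridge between dying cells and phagocytes, was high in all 4 libraries and stood at 14279.9 against 275951, 260985 and 262392 (chromosome 7, 78783515 to 78798825). The 3 replicates were again alike, and the nearest was 18.3-fold above the single library. Epcam, the adhesion molecule used for the sort, was at 657 against 7569, 11625 and 14376 (chromosome 17, 87943407 to 87958557). The groups did not overlap and stood 11.5-fold apart at the nearest point, while the replicates differed among themselves by just under 2-fold. All cells were sorted as EpCAM+ by protein, and the transcript still separated the groups.

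Enzymes and receptors of lipid mediators were higher as well. Ptgs1, the constitutive cyclooxygenase, was at 136 against 2217, 5499 and 9066. Hpgds, the prostaglandin D synthase of immune cells, was at 80.2 against 1489.5, 3261 and 3871. Lpar3, a receptor for lysophosphatidic acid, was at 19.7 against 525, 1081 and 1365. For each of these 3 genes replicate 1 was the lowest of the TGFβ/IL-34/Jag1 libraries and was still over 16-fold above the Jag1 only library. Ltc4s, the leukotriene C4 synthase, lay outside the range but close to it (1461 against 1575, 1562 and 2285) and was not called. Ahr, the aryl hydrocarbon receptor, was called at the smallest distance of the 8, 2.83-fold (2917 against 8693, 8262 and 11356).

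Cdh1, which encodes E-cadherin and ties Langerhans cells to keratinocytes, was higher in all 3 replicates but under 2-fold from replicate 1 (4822 against 8024, 12669.7 and 17750.5). The same held for Cd24a, a surface protein of Langerhans cells (5073 against 7174, 10339.8 and 14224). Transcription factors of the list other than Ahr went the other way. Id2, which Langerhans cells need, was at 24236 against 7538, 12231 and 12378, above all 3 replicates and 1.96-fold from the nearest. Runx3 was at 21123 against 15487, 15387 and 16968. Neither was called. Of the 13 genes, 6 were also called against all 10 samples with TGFβ and IL-34, for which 2.54% of all genes were called higher. They were Cldn1, Epcam, Mfge8, Hpgds, Ptgs1 and Lpar3.

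**Figure D2:**
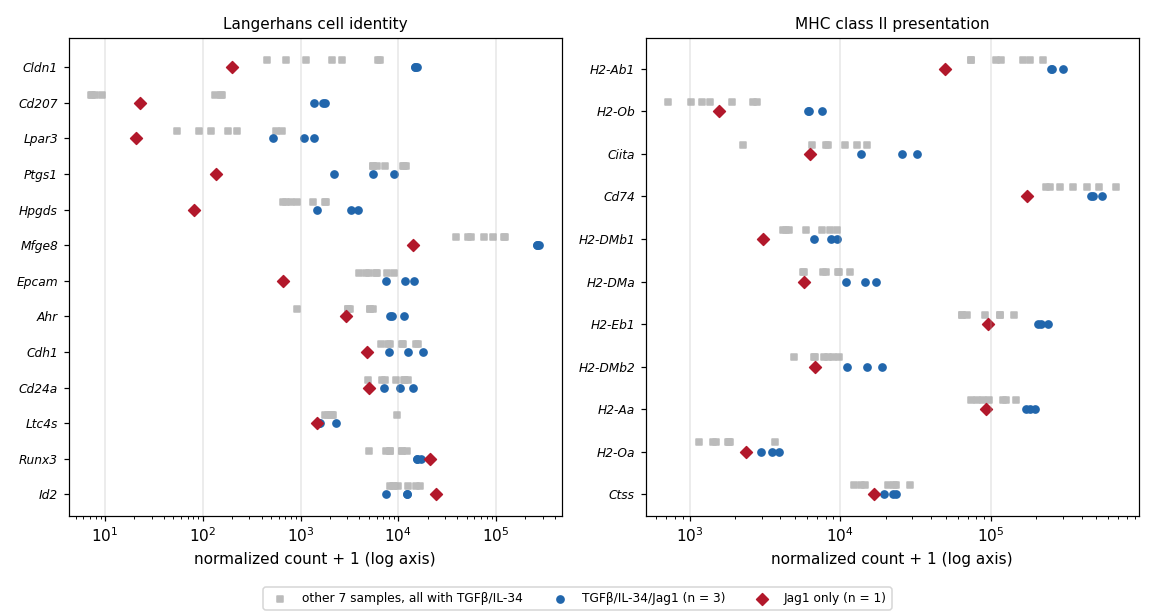
Normalized count + 1 on a log axis for each gene of the Langerhans cell list (left) and the MHC class II list (right), with the Jag1 only library as a red diamond, the 3 TGFβ/IL-34/Jag1 libraries as blue circles and the other 7 samples as grey squares. On the left the diamond lies below the circles for 11 of 13 genes, with Runx3 and Id2 the exceptions, and on the right for 11 of 11.

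Components of the TGFβ pathway went in both directions. Of 17 genes for ligands, receptors and Smads, 3 were called higher and 3 lower, against 8.22% and 10.9% of all genes, with a median log2 fold change of −0.36. Among the ligands, Tgfb1 hardly differed (7611 against 7998, 9328 and 9623). Tgfb3 was higher with TGFβ and IL-34 (207 against 960.1, 815 and 2069), and Tgfb2 was lower (183 against 19.5, 19.3 and 16.3). The 3 ligand genes thus had 3 different outcomes. Tgfbr1, the kinase that activates Smads, was called higher (1036 against 2180.1, 3483 and 3718). Tgfbr2, which binds the ligand, was called higher too (636 against 1344, 1739.5 and 2481). Each was just over 2-fold from replicate 1, its lowest replicate. Tgfbr3, the co-receptor betaglycan, was at 209.6 against 18.2, 6.13 and 4.94, so all 3 replicates held little of it. Smad3, a receptor-activated Smad of TGFβ, was lower as well (226 against 21.6, 11.4 and 17.6). Its relative Smad2 was lower without being called (1161 against 846, 843 and 1028), as was their shared partner Smad4 (2831 against 2113, 1739.8 and 2253). Tgfbr3, Smad3 and Tgfb2 were higher in the Jag1 only library than in any of the 10 others, and by more than 2-fold.

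Feedback and target genes of TGFβ and its relatives included 5 of 17 called higher (Itgae, Smad6, Id1, Tgfbi and Ccn2) and 1 called lower (Rgcc), against 8.22% and 10.9% of all genes. The list median was 0.11, and it was 0.61 without replicate 1. Itgae, the integrin chain CD103 that binds E-cadherin and is a known TGFβ target, was at 276 against 2693, 5728 and 8812. The replicates spread widely, all of them above the single value. Id1, a target of the BMP branch, was at 25.7 against 201, 337 and 399. Smad6, an inhibitory Smad, was at 17.3 against 121, 125 and 144. Itgae, Id1 and Smad6 were each lower in the Jag1 only library than in any other of the 11. The inhibitory Smad7 was higher in each replicate but close to the single value (1234 against 1372, 1977 and 2213), as was the Smad co-repressor Skil (3795 against 4180.5, 3984 and 4123). Ski, another co-repressor, was higher by 1.87-fold at the nearest replicate (1176 against 2204, 2278 and 2554). Pmepa1, which dampens Smad signalling, was higher by 1.51-fold (1171 against 2212, 1769.9 and 2118). None of these 4 feedback genes reached the 2-fold line. Tgfbi, a secreted matrix protein named for its induction by TGFβ, was at 1009.9 against 2021, 3697 and 5688. In the other 7 samples it was at 115 to 1768, so the Jag1 only level was within the range of the series. Tgfbi and Ccn2 were no longer called with 4 added to each value in place of 1.

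Receptors for the growth factors in the medium differed too. Csf1r, the receptor of IL-34 and of CSF1, was at 2001 against 13200.0, 21274 and 31394. The groups did not overlap, and the single library was 6.59-fold below replicate 1, although the replicates themselves were over 2-fold apart. Csf2ra, the chain that gives the GM-CSF receptor its specificity, was likewise higher (1945 against 7909.8, 10844 and 7327). The signalling chain Csf2rb was outside the range by 1.26-fold only (53435 against 74499, 67479 and 71575). On this list of 9 genes 2 were called higher and 3 lower, against 8.22% and 10.9% of all genes, with a median of 0.23. The ligand gene Csf1 was lower (537 against 92.0, 142 and 33.9), and so was the receptor chain Il3ra (1735 against 768, 771 and 541). Flt3, a receptor of dendritic cell progenitors, was at 2547 against 475, 909 and 577. Of the 9 genes, 0 were called against all 10 samples, and Csf1r, Csf2ra and Csf1 lay outside all 10 by under 2-fold. The TGFβ/IL-34/Jag1 libraries with FICZ held Flt3 at 3142, 4057 and 2829, above the Jag1 only library. Il3ra was above it in replicate 1 of TGFβ/IL-34 with FICZ (3055). Il34 itself was at 0 in all 4 libraries.

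Genes of antigen presentation on MHC class II were higher with TGFβ and IL-34 for every member. All 11 lay above the single library in each replicate, where 36.7% of all genes did, 6 of them were called, and the median was 1.29. H2-Ab1, the beta chain of I-A, had the widest gap of the 11 (49281 against 248595, 256212 and 301740.0). Its partner H2-Aa was higher but under 2-fold away (92192 against 181056, 169799 and 197176). Cd74, the invariant chain that guides class II molecules, was at 172658 against 462235, 472696 and 545577. H2-Eb1, the beta chain of I-E, was at 95565 against 213662, 204278 and 239502. Cd74 and H2-Eb1 were called, but not after quantile normalization of the 11 libraries. Ciita, the master regulator of class II genes, was at 6240.2 against 13607, 25548 and 32032. H2-Ob, a part of the H2-O modulator of peptide loading, was at 1555 against 6096, 6198 and 7579. The regulator thus had the direction of the genes it is known to control. Ctss, the protease that trims the invariant chain, was the nearest of the 11 to equal levels (16644 against 22297, 19522 and 23521). None of the 11 was called against all 10 samples, and for 8 of them at least 1 of the other 7 samples lay below the Jag1 only value.

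Macrophage genes split. Of 17 that passed, 4 were called higher and 8 lower, against 8.22% and 10.9% of all genes, and the median log2 fold change was −1.80. Among the 4 higher were the 3 genes of complement C1q, which starts the classical complement pathway. C1qa was at 944 against 3135, 5958 and 8988, C1qb at 1078 against 3174, 5342 and 6996 and C1qc at 792 against 4155, 6479 and 8463. All 3 genes were lowest in replicate 1 among the replicates. In the other 7 samples C1qa was at 110.3 to 1062 and C1qb at 226 to 831, so the high level belonged to the 3 TGFβ/IL-34/Jag1 libraries and the Jag1 only library lay within or above the range of the others.

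The 8 lower genes included receptors for uptake. Marco, a scavenger receptor, was at 247 against 5.68, 4.16 and 2.95. Mrc1, the mannose receptor, was at 195 against 7.27, 30.4 and 11.6. Msr1, also a scavenger receptor, was at 486 against 157, 135 and 125. Marco was nearly absent from all 3 replicates. Gpnmb, a membrane glycoprotein of lipid-laden macrophages, was at 14781 against 750.0, 797 and 505. The endosomal marker Cd68 was at 1796 against 322, 314 and 244. Arg1, which encodes arginase, was at 208 against 0, 9.20 and 3.87. Both Gpnmb and Arg1 were higher in the Jag1 only library than in any other of the 11. Zeb2, a transcription factor that upholds macrophage identity in several tissues, was at 1032 against 268, 169 and 389, lower in every replicate. The Fc receptor gene Fcgr1 was lower too (104 against 8.61, 15.8 and 24.1). Of the 8, Arg1 alone was called against all 10 samples, where 3.31% of all genes were called lower. Mrc1, Marco, Cd68, Zeb2 and Gpnmb were above all 10 in the Jag1 only library, but by under 2-fold. In the other 7 samples Msr1 reached 934 and Fcgr1 reached 140, above the Jag1 only library. Mertk, a receptor for dying cells, did not separate the groups (546 against 439, 620.3 and 596). Apoe, a carrier of lipids, was lower in all 3 without being called, with replicate 2 near the single value (1025 against 160.5, 542 and 109.5). The other markers of tissue macrophages, Cd163, Folr2, Lyve1, Vsig4 and Timd4, did not pass the filter.

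Classical monocyte genes were lower with TGFβ and IL-34. Of 9 genes 7 were called lower and 0 higher, against 10.9% and 8.22% of all genes, with a median of −1.83. Lyz2, the lysozyme gene of myeloid cells, was at 7564 against 434, 929.6 and 327. Ly6c2, whose product marks monocytes that have newly left the marrow, was at 62.6 against 15.3, 15 and 23.6. Plac8, another gene of classical monocytes, was at 444 against 46.3, 108 and 97.2. F13a1, a coagulation factor subunit made by monocytes, was at 99.3 against 2.83, 4.69 and 4.42. Vcan, a proteoglycan, was at 146 against 3.95, 8.13 and 9.33. Both were under 10 normalized counts in every replicate. Ccr2, the receptor that brings monocytes into tissue, was at 68.6 against 24.2, 15.4 and 17.1. Fn1, fibronectin, did not separate the groups (385 against 321, 581 and 258). Of the 7, F13a1 alone was called against all 10 samples. The other 7 samples of the series held Lyz2 at 1611 to 8381 and Ly6c2 at 177 to 881, mostly nearer to the Jag1 only library or above it. In bulk RNA, fewer cells of a type and less RNA of a gene per cell cannot be told apart.

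Part of the granulocyte markers were lower in the same 3 libraries. Of 7 mast cell and basophil genes 4 were called lower and 0 higher, against 10.9% and 8.22% of all genes, with a median of −2.26. Hdc, which makes histamine, was at 1281 against 90.1, 61.9 and 45.3. Cpa3, a protease of mast cells and basophils, was at 2053 against 95.4, 152 and 95.7. Gata2, a transcription factor of these cells, was at 2759.5 against 586, 646 and 504, and the basophil protease gene Mcpt8 was at 277 against 37.7, 31.2 and 35.5. The summed level of the list was 6380.0 in the Jag1 only library, 686 to 921 in the 3 and 5409.8 to 15702 in the other 7, so here the TGFβ/IL-34/Jag1 libraries were the ones apart from the series. Mcpt1, a mast cell protease gene, was low in both groups and higher in all 3 replicates without being called (2.07 against 9.07, 19.8 and 4.96). The receptor chain Fcer1a was at 0 in all 11 samples. Of 10 neutrophil granule genes 4 were called lower and 0 higher, and 5 lay within the range. Lcn2, which binds bacterial iron carriers, was at 443 against 28.3, 15.6 and 15.9, and the protease gene Ctsg at 221 against 33.8, 17.6 and 11.9. The summed level of neutrophil genes was 1159.6 against 283 to 404, and 486 to 13242 in the other 7, so the TGFβ/IL-34/Jag1 libraries were again below all others. Whether such cells were part of the sorted population was not tested. Lymphoid and erythroid genes were near 0, with 3 of 8 passing the filter and a summed level of 51.2 against 7.97 to 23.6.

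**Figure D3:**
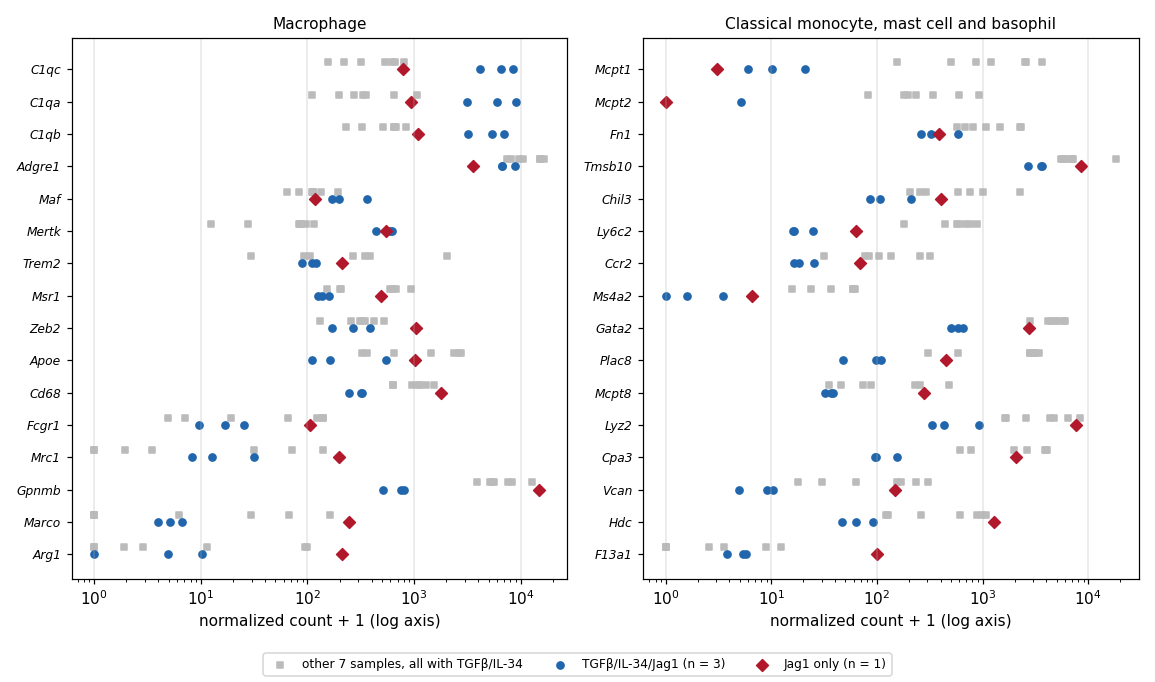
Normalized count + 1 on a log axis for macrophage genes (left) and for classical monocyte, mast cell and basophil genes (right), with the Jag1 only library as a red diamond, the 3 TGFβ/IL-34/Jag1 libraries as blue circles and the other 7 samples as grey squares. The diamond lies left of the circles for the C1q genes and right of them for Arg1, Marco, Gpnmb, Lyz2 and Hdc, while most grey squares of Lyz2 and Hdc lie nearer to the diamond.

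The genes farthest from the single library were ranked by fold to the nearest replicate, among called genes with a proper symbol and a value of at least 50 in every library of the higher group. Of 758 such genes called higher, 30 are named here, and of 1115 called lower, 30. In the first set, Ret, the receptor tyrosine kinase for ligands of the GDNF family, led with 5.39 against 2199, 1502 and 1693 (chromosome 6, 118128706 to 118174769). Its 3 replicates were alike, while the other 7 samples held it at 7.46 to 54.3, so its high level was seen in the 3 TGFβ/IL-34/Jag1 libraries and in no other of the 11. Sectm1b, an immune membrane protein, was not read in the Jag1 only library (0 against 321, 163 and 181), and against a floor of 3 reads it was at least 52.6-fold higher. Its neighbour Sectm1a was at 21.6 against 1981, 1804 and 1589. These 2 genes are close copies, and reads could be split between them, as could those of the kallikrein genes Klk1b1 (50.6 against 3973, 5589.6 and 3398), Klk1b9 (46.5 against 1244, 2084 and 1842) and Klk1b4 (3.09 against 143, 117 and 85.9). Fat3, Slc36a2 and Rnf39 were also at 0 in the single library. Against the same floor the atypical cadherin Fat3 was at least 44.8-fold higher, the amino acid transporter Slc36a2 at least 27.9-fold and the RING finger gene Rnf39 at least 21.3-fold.

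Cd300e, an activating receptor of myeloid cells, was at 75.6 against 4232, 6841 and 7493. Gucy1a1, a subunit of the nitric oxide receptor guanylate cyclase, was at 31.0 against 1065, 1388 and 1216. Edn1, the vasoactive peptide endothelin-1, was at 15.6 against 464, 1175 and 1387. Gucy1a1 and Edn1 were lower in the Jag1 only library than in all 10 other samples, and Cd300e was not. Entpd3, an enzyme that breaks down extracellular nucleotides, was at 72.3 against 4303, 1723 and 2036. Vipr1, a receptor of vasoactive intestinal peptide, was at 7.73 against 174, 399 and 314. Gnb3, a G protein beta subunit, was at 60.2 against 1778, 1193 and 1272. Replicate 1 was the highest of the 3 for Entpd3 and Gnb3 and the lowest for Vipr1. Kcnj10, a potassium channel, was at 9.35 against 380.1, 553 and 829.7. Ctnnd2, a catenin of cell junctions, was at 36.2 against 1168, 1555 and 2157. Bcar1, an adaptor of integrin signalling, was at 10.4 against 259, 556 and 487. Among regulators of transcription, Sox7 was at 11.4 against 345, 426 and 594 and Zfp57, which guards genomic imprints, at 6.25 against 197, 220.5 and 224. The others of the 30 were Olfml3, Fam189a2, Hapln3, Trim47, Nrbp2, Btnl1 and Dmpk, together with Cldn1, Cd207 and Lpar3. Of the 30, 17 were lower in the Jag1 only library than in all 10 other samples and 11 were called against all 10. The shares over all genes were 18.1% and 2.54%. The 30 were picked for the distance of this same library from 3 of the 10, so high counts follow in part from the choice. The exceptions to the first count were Sectm1a, Sectm1b, Rnf39, Klk1b1, Klk1b4, Olfml3, Cd207, Cd300e, Hapln3, Sox7, Nrbp2, Bcar1 and Vipr1. The other 7 samples, all with TGFβ and IL-34, held Sox7 at 0 to 43.8 and Bcar1 at 5.75 to 86.4. They held Sectm1a at 0 to 86.0 and Sectm1b at 0 to 10.3.

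In the second set, Gzmb, the cytotoxic protease granzyme B, led with 1072 against 0, 0 and 6.91 (chromosome 14, 56496295 to 56499717). It was read in 1 of the 3 replicates, and the other 7 samples held 0 to 280.0. The cytokine gene Il13 was at 152 against 0, 1.04 and 0.989, nearly absent from the replicates. Il12rb1, a chain of the receptors for IL-12 and IL-23, was at 119 against 0, 3.86 and 3.63. Saa3, an acute phase protein made by macrophages, was at 2789 against 2.34, 12.1 and 40.8. The other 7 samples held Saa3 at 2.86 to 31.0, which leaves the Jag1 only library alone at the top. Spib, an ETS transcription factor of plasmacytoid dendritic cells and B cells, was at 4977 against 121, 149 and 44.8. Inhba, which encodes a chain of activin, a ligand of the TGFβ family, was at 1086 against 40.8, 44.2 and 30.5. Both were more than 2-fold above all 10 other samples in the Jag1 only library.

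Plat, the tissue plasminogen activator, was at 1480.4 against 51.1, 51.9 and 60.3. The antiprotease gene Slpi was at 1378 against 30.6, 37.7 and 20.8. Serpinb9b, of the family of granzyme inhibitors, was at 831 against 14.4, 7.52 and 18.6. In each case all 3 replicates were far below the single library. Mmp8, a collagenase, was at 357 against 0, 2.08 and 6.87, and the membrane metalloproteinase gene Mmp15 at 113 against 0, 3.20 and 3.01. The collagen receptor gene Ddr1 was at 507 against 11.1, 13.3 and 14.3. Slc40a1, the iron exporter ferroportin, was at 268 against 4.51, 8.25 and 3.88, and Cp, the ferroxidase ceruloplasmin, at 183 against 2.45, 2.29 and 3.49. Sgms2, a sphingomyelin synthase, was at 184 against 0, 0.921 and 1.30. The others of the 30 were Gprin2, Khdc1a, Commd1b, Atp1b1, Selenom, Scube1, Syt7, Nhsl1, Tubb2b, Lipg, Arnt2, Slc35d3, Ccn3, Gjb2 and Marco. Commd1b was at 0 in all 3 replicates and, against the floor of 3 reads, at least 20.8-fold lower there. Replicate 1 of TGFβ/IL-34 with FICZ held it at 197, above the Jag1 only library (70.6), and the remaining samples held it at 0. Of this set, 25 were higher in the Jag1 only library than in all 10 others, and 21 were called against all 10. The shares over all genes were 20.1% and 3.31%, and here too high counts follow in part from how the 30 were picked. The exceptions to the first count were Sgms2, Commd1b, Mmp8, Lipg and Il12rb1. The other 7 samples, all with TGFβ and IL-34, held Mmp8 at 159 to 1036, Il12rb1 at 25.2 to 251 and Sgms2 at 6.37 to 685.

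**Figure D4:**
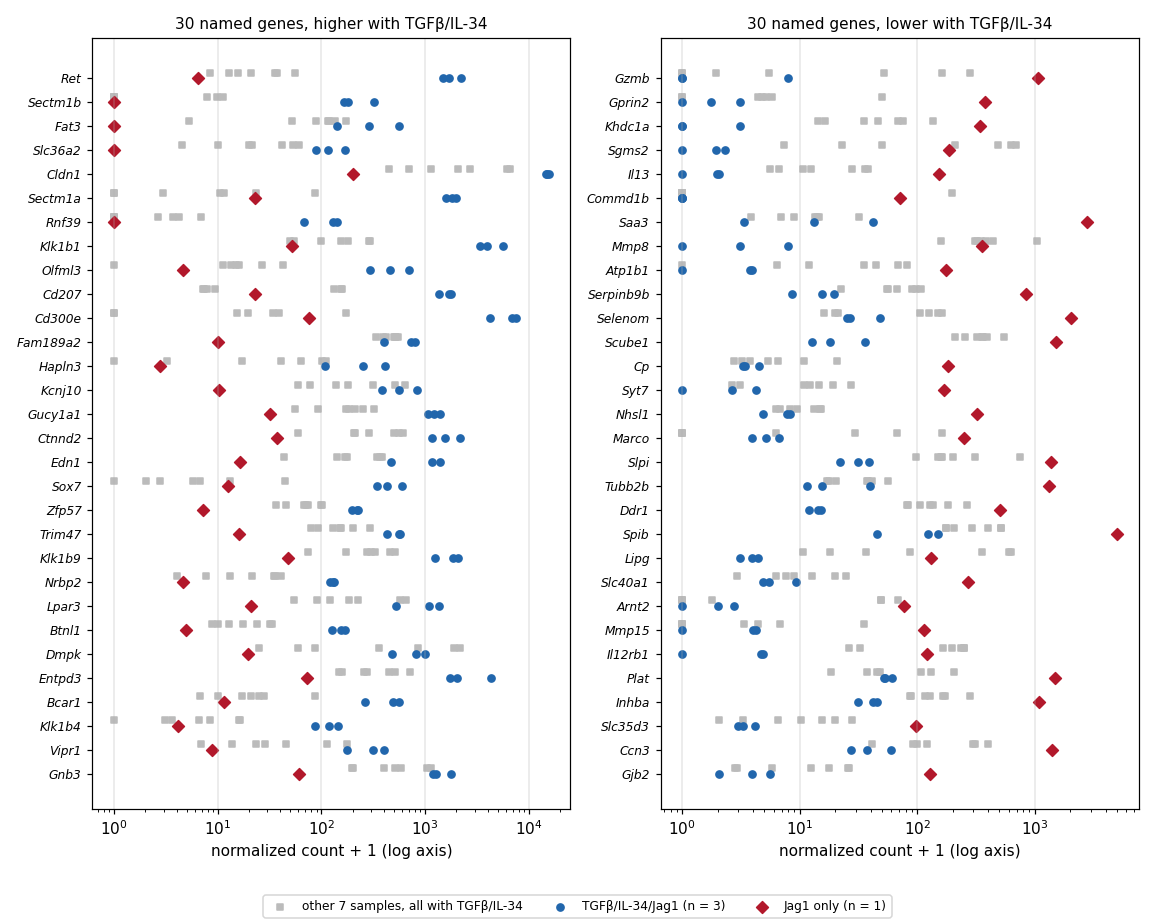
Normalized count + 1 on a log axis for the 30 genes named higher (left) and the 30 named lower (right) with TGFβ and IL-34, in order of fold to the nearest replicate, with the Jag1 only library as a red diamond, the 3 TGFβ/IL-34/Jag1 libraries as blue circles and the other 7 samples as grey squares. On the left the grey squares of Ret, Cd207 and Cd300e lie nearer to the diamond than to the circles, and on the right those of Saa3, Nhsl1 and Cp lie nearer to the circles.

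Of 14 chemokine genes 0 were called higher and 5 lower, against 8.22% and 10.9% of all genes, and 5 lay within the range, with a median of −0.35. The 5 were CC chemokines that draw monocytes and T cells. Ccl5 was at 11888 against 413, 1041 and 465. Ccl6 was at 4586 against 298, 471 and 133, and Ccl9 at 2388 against 98.1, 199 and 74.7. Replicate 2 was the highest of the 3 each time and was still far below the single library. Ccl3 (302 against 3.39, 31.2 and 10.02) and Ccl4 (94.6 against 23.7, 19.8 and 19.2) were the other 2. Ccl22, made by mature dendritic cells, was higher in the Jag1 only library by 1.17-fold over the nearest (105028 against 86317, 89709.6 and 56559). Ccl17, a ligand of Ccr4 made by dendritic cells, was the 1 chemokine gene above the single library in all 3 replicates, without being called (1123 against 1882, 2643 and 1853). Of 8 chemokine receptors 2 were called higher and 3 lower. Ccr1 was called higher, at 363 against 2245, 4261 and 5833. It is a receptor of Ccl3 and Ccl5, and its direction was opposite to that of these ligands. Cxcr4, which holds cells in the marrow, was lower (4769 against 745, 1036 and 571), as was Cx3cr1 (30.1 against 12.5, 1.402 and 7.63), the second of which was not called after quantile normalization. Ccr7, the receptor that leads migrating dendritic cells to lymph nodes, did not separate (41719 against 44616, 42248 and 23339). Among 11 cytokines, with a median of −0.0274, 3 were called higher and 1 lower. Tnf was at 146 against 319, 1137 and 1297, and Il6 at 1048 against 440.5, 438 and 260.2, in opposite directions.

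Interferon-related genes did not move together. Of 17 interferon-stimulated genes 2 were called higher and 3 lower, against 8.22% and 10.9% of all genes, and 4 lay within the range. Isg15, a ubiquitin-like protein, was at 471 against 119, 149 and 216. Rsad2, the antiviral protein viperin, was at 426 against 42.1, 81.2 and 60.7. Both were higher in the Jag1 only library than in any of the 10 others and by more than 2-fold. In the other direction, Oasl2, of the oligoadenylate synthetase family, was at 123 against 1663, 1699.7 and 2136, and Ifi44 at 5.53 against 22.2, 53.4 and 185. The list median was 0.48, and with replicate 1 alone, which shares the experiment code of the single library, it was −0.48. Without replicate 1 it was 1.02. The next genes lay outside the list and were picked with their values known. They came from the 99 genes called lower with at least 10000 in the Jag1 only library. Their direction was thus set by that choice and says nothing about the list. Irf1, an interferon-induced transcription factor, was at 10106 against 1158, 1493 and 1176. Stat4, which carries IL-12 signals, was at 18739 against 2139.8, 2440.4 and 1454. Epsti1, an interferon-responsive gene, was at 11438 against 1443, 1301 and 1333. Each was called lower with TGFβ and IL-34 against all 10 samples as well.

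Both groups received Jag1, the Notch ligand. Of 12 Notch pathway genes 1 was called higher and 4 lower, against 8.22% and 10.9% of all genes, and 3 lay within the range, with a median of −1.61. Nrarp, a direct target and feedback inhibitor of Notch, was at 361 against 78.5, 93.7 and 48.1. The ligand genes Jag2 (1011 against 355, 246 and 151), Dll1 (76.1 against 0, 3.49 and 4.89) and Dll4 (52.9 against 18.2, 12.5 and 6.86) were lower. Jag1 itself lay within the range (259.7 against 286, 437 and 212). Of the receptors Notch2 was higher in the single library by 1.96-fold (5292 against 2377, 2702 and 2705) and Notch1 did not separate (801 against 881, 625 and 1196). Hes5, a classic target, was called higher from low counts (0 against 7.94, 12.5 and 8.89), and Hes1 did not pass the filter. Of 5 targets of Ahr, 0 were called higher and 2 lower, with a median of −1.68. That median was −0.44 with replicate 1 alone and −0.71 with 4 added to each value in place of 1. The P450 enzyme Cyp1b1 was lower (40.9 against 1.04, 4.76 and 2.80), and Ahrr (1234 against 2289.8, 1991 and 2539) and Tiparp (590.1 against 1176, 965 and 1614), which restrain the receptor, were higher but not called. In the other 7 samples Cyp1b1 ranged from 2384 to 7391, well above all 4.

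Lipid metabolism was divided between synthesis and handling. Of 17 genes of sterol and fatty acid synthesis, 15 were above the single library in all 3 replicates, where 36.7% of all genes were, 4 were called higher and 0 lower, and the median was 0.70. Fasn, the fatty acid synthase, was at 892 against 3644, 7252 and 7307, with all 3 replicates well above the single library. Lss (344 against 741, 799 and 1761) and Fdps (1066 against 2241, 3708 and 4077), enzymes of the sterol pathway, were just over 2-fold from replicate 1. Of 10 genes of lipid uptake, storage and efflux, 1 was called higher and 5 lower, against 8.22% and 10.9% of all genes, with a median of −1.23. Fabp4, a fatty acid carrier, was at 1465 against 40.7, 111 and 57.2. Fabp5, a second carrier, was at 39803 against 12543, 16045 and 9010.1 and was not called after quantile normalization. The cholesterol efflux pump genes Abca1 (422 against 122, 138 and 150.5) and Abcg1 (5744 against 1026, 1434 and 1579) were lower in all 3 replicates. Lpl, the lipoprotein lipase, was lower too (3203 against 1139, 679 and 635). Plin2, which coats lipid droplets, was higher (1200.1 against 6219.7, 9485 and 7414).

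Of 15 glycolysis and hypoxia genes 3 were called higher and 2 lower, against 8.22% and 10.9% of all genes. Their median was 0.76, and 10 were above the single library in all 3 replicates, where 36.7% of all genes were. Hk2, the hexokinase of the first step, was at 649.5 against 3418, 2446 and 4011, and the oxygen sensor Egln3 at 750.2 against 4486, 2063 and 5296. Eno1 was at 12422 against 30994, 26241 and 35608, whereas Gapdh did not separate (74604 against 75407, 62294 and 81399.7). Pfkfb3, which speeds glycolysis, was lower (19058 against 5031, 5430.4 and 5998), as was Ndrg1 (17741 against 5760.0, 7272 and 6628). Of 14 lysosomal genes 0 were called higher and 2 lower, Lgmn (7414 against 2556, 2290.1 and 2397) and the cathepsin Ctsd (9858 against 4294, 3997 and 4507), the second of which was not called after quantile normalization. The summed level of that list was 93581 against 80535 to 87489.

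Integrin genes went in both directions, with 4 of 13 called higher and 4 lower, against 8.22% and 10.9% of all genes. Besides Itgae, Itgax, which encodes CD11c of dendritic cells, was higher (4631 against 14031, 18152 and 21088). Itgal, a chain of LFA-1, was at 1091 against 2250.4, 3791 and 3034, and Itgb5 at 612 against 1288, 1352 and 1335. The lower ones were Itga4 (18840.4 against 5641, 5924 and 4662), Itga6 (3387 against 1416, 1494 and 1371), Itgb3 (440.3 against 76.0, 47.5 and 37.9) and Itgb8 (71.1 against 10.2, 19.6 and 17.5). The product of Itgb8 activates latent TGFβ together with its alpha chain. Itgb7, the usual partner of Itgae, was lower in all 3 without being called (1329 against 252, 474 and 785), opposite to Itgae. Mgl2, a lectin of monocyte-derived dendritic cells, was higher (3194 against 11558, 9120.0 and 11544), as was the fusion protein gene Dcstamp (189 against 826, 729.9 and 946). With Itgax these made 3 of 4 genes on the list of converting monocyte-derived cells. Of 9 matrix metalloproteinase and inhibitor genes 0 were called higher and 3 lower. Besides Mmp8 these were the collagenase gene Mmp13 (691 against 45.5, 125 and 162) and the gelatinase gene Mmp2 (145 against 33.8, 59.8 and 55.9).

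Few maturation and cell cycle genes were called. Of 12 genes of migrating Langerhans cells and dendritic cell maturation, 0 were called higher and 1 lower, Relb, a subunit of NF-κB (19644 against 6033, 5913 and 4188), and Cd40, Ccr7 and Socs2 lay within the range. Cd86, a costimulatory ligand, was 1.04-fold above the single library (17052 against 20152, 17999 and 17799), and Cd83 was 1.02-fold below (29429.7 against 28759, 21132 and 12876). Of 20 cell cycle genes 11 lay within the range and 1 was called, Top2a, lower (2192 against 541, 731 and 901). The proliferation marker Mki67 was lower in all 3 but under 2-fold from replicate 3 (894 against 232, 448 and 616). Of all genes 19.1% were called in either direction.

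Stress and early response genes were mixed. Of all genes, 8.22% were called higher and 10.9% lower. Of 8 amino acid stress genes 3 were called lower and 0 higher, among them Ddit3, the stress factor CHOP (1730.4 against 540.4, 168 and 197), and Psat1 of serine synthesis (626 against 109.9, 152 and 129.7). Of 6 oxidative stress genes 2 were called lower, the haem oxygenase Hmox1 (1959 against 687, 436 and 563) and the cystine carrier Slc7a11 (3565 against 1703, 899 and 1097), the second not after quantile normalization. Among 9 immediate early and heat shock genes, Egr1 (36.3 against 196, 556 and 1770.4) and Fosb (19.2 against 631, 243 and 203) were called higher and Atf3 (2874 against 751, 557 and 514) and Dusp1 (4304 against 1156, 1132 and 869) lower. Egr1 spread widely among the 3 replicates, all of them above the single value.

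**Figure D5:**
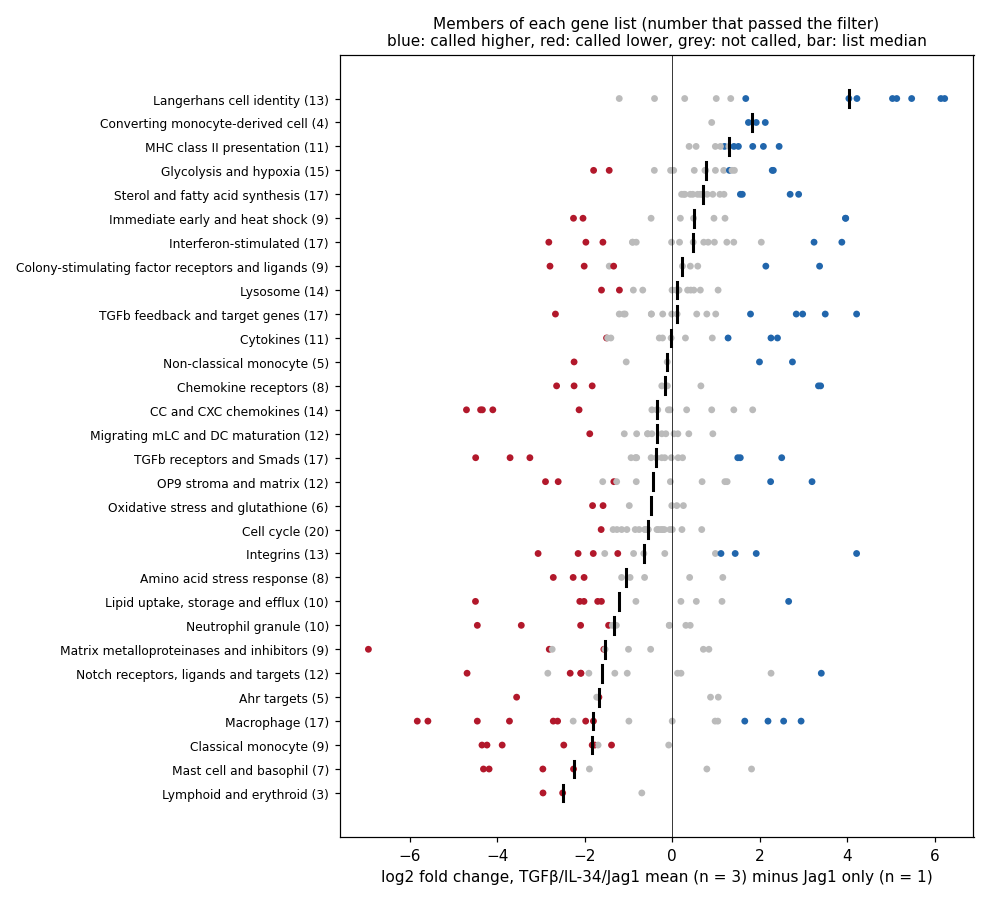
Log2 fold change of each gene of 30 lists (x axis, mean of the 3 TGFβ/IL-34/Jag1 libraries against the single Jag1 only library), with 1 row per list in order of its median, drawn as a black bar, and the number of genes that passed the filter in brackets. Blue marks genes called higher, red those called lower and grey those not called. The Langerhans cell list lies at the top with a median of 4.04, MHC class II at 1.29, and the macrophage and classical monocyte lists near the bottom at −1.80 and −1.83.

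All 10 other samples received TGFβ and IL-34, so the single library was also set against all of them. It lay below all 10 for 2374 genes (18.1%) and above all 10 for 2633 (20.1%). At least 2-fold beyond the nearest of the 10, 333 genes (2.54%) were higher with TGFβ and IL-34 and 434 (3.31%) lower, 767 (5.86%) in all. The comparison shares its single library with the one above and adds cultures that differ in Jag1 and FICZ. The nearest of the 3 replicates was replicate 1 for 53.5% of the genes called higher, 33.7% of those called lower and 38.8% of all genes. Replicate 2 was the nearest for 23.7%, 42.9% and 32.4%. With replicate 1 alone, the only one from the experiment of the single library, 1678 genes were at least 2-fold higher and 2309 lower, a count that drops the condition on the other 2 replicates.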

How the data were processed

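Bulk RNA was sequenced from CD11b-low EpCAM+ cells sorted from 11 monocyte cultures. The authors quantified reads with salmon against a GRCm39 transcript model, summed them to genes with tximport and normalized them with DESeq2, whose versions are not given in the sources used here. The values the authors deposited are a normalized signal per gene, called normalized counts here, in 1 table whose columns were all mapped to samples by name. A second file gave an experiment code and a condition for each sample. The conditions matched the labels, and the experiment code differed from the sample description for replicate 1 of TGFβ/IL-34, which enters no main comparison.

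Gene identifiers were matched to GENCODE vM39 (GRCm39), with 21676 matched and 184 not. Low values of genes with 1 transcript were whole multiples of a step within 0.1 steps, up to 15 steps, for 90.1% to 98.8% of values in the 4 libraries compared. The step gave the worth of 1 read. For the whole table it was 53.1% to 56.5%. Read counts were therefore not recovered, and no count model was fitted. Intervals were not computed, and low values carry the largest counting error.

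Genes with at least 10 in at least 2 of 11 samples were kept, and log2(value + 1) was used, so a fold change understates that of low genes. A gene was called when the single library lay outside the range of the 3 and at least 2-fold from the nearest. For a symbol on more than 1 row (21 symbols, 2 of them in lists), the row with the higher mean was used. Named genes were up to 30 per direction with the largest fold to the nearest replicate, with a symbol that is no predicted or clone name and at least 50 in every library of the higher group, and any gene of 31 lists. Some list members are not reported here, although the list counts and medians include them. The comparison, its members and the lists were chosen with earlier results of these data known, so the lists are described by counts and medians and nothing was tested. RefSeq promoter windows were of build GRCm38.p6 and were matched by symbol. The scripts were tested on simulated data and run with Python 3.11.15, numpy 2.4.6, pandas 2.3.3 and matplotlib 3.10.9. Alternatives were pseudocounts of 0.5 and 4, no filter and a filter at 50, no fold minimum and a 4-fold minimum. Values were also rescaled by median of ratios over the 4 libraries and by quantile normalization over all 11. Further alternatives left out each replicate or used replicate 1 alone.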

Additional observations from a re-analysis of the deposited data

How the results depend on the processing

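With 1 library on one side, the calls rest on where the line was drawn and on how many replicates had to lie beyond it. Against 1077 genes called higher and 1430 lower, no fold minimum gave 4807 and 4962, a 4-fold minimum gave 377 and 549, and replicate 1 alone, which shares its experiment code with the single library, gave 1678 and 2309. Without each replicate in turn the counts were 1217 to 1457 higher and 1592 to 1715 lower, larger by construction because fewer values bound the range. Pseudocounts, filters and scalings kept the counts within 1.5 times of these. After quantile normalization 95.8% of the genes called higher and 87.8% of those called lower were still called. Of the 187 genes of the lists and named sets that were called, 12 lost the call after quantile normalization and 6 with a pseudocount of 4, and none turned its direction. With replicate 1 alone, 174 of all 381 genes of these sets moved by more than 1 SD of the 3 replicates. In that setting a single replicate stood in for their mean, and the Langerhans cell median was 3.52 (4.04 as reported). Some list medians near 0 turned their sign. After quantile normalization that of non-classical monocyte genes was 0.21 (−0.12 as reported), of chemokine receptors 0.16 (−0.18) and of cytokines 0.0816 (−0.0274). Over the fits without 1 replicate, non-classical monocyte genes had medians of −0.25 to 0.0769, cytokines of −0.0641 to 0.0968, colony-stimulating factor genes of −0.0277 to 0.45 (0.23) and chemokine receptors of −0.31 to 0.0581. With replicate 1 alone the medians were −0.48 for interferon-stimulated genes (0.48), 0.0347 for chemokine receptors and 0.56 for cytokines. The cause was not tested. No paired analysis was possible because the groups compared share only replicate number 1 and the result comes from no test. The single library cannot be left out.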

Other observations

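Genes of large absolute value were described apart, as called genes with at least 10000 normalized counts in every library of the higher group. Of 24 higher and 99 lower, the 15 farthest in each direction were listed, a rule set after the values were seen. Odc1, which starts polyamine synthesis, was at 1445 against 18625, 15973 and 14782, and Socs3, an inhibitor of cytokine receptors, at 3972 against 30471, 24878 and 29329. Plet1, a surface protein of epithelial progenitors and some dendritic cells, was at 6923 against 46038, 37619.8 and 48605, Lgals3, the lectin galectin-3, at 13150.0 against 53651, 47113 and 58742, and the ferritin heavy chain Fth1 at 99738 against 516732, 322672 and 365331. Furin, a protease that matures TGFβ among other proteins, was at 4971 against 18817, 19241 and 25284. In the other direction, Igfbp4, which binds insulin-like growth factors, was at 83899.7 against 7126, 4596 and 2729, and Thbs1, a matrix protein that can activate TGFβ, at 41889 against 2022, 3070.3 and 1755. The neighbouring membrane genes Tmem176a (10626 against 894, 1721 and 1133) and Tmem176b (12019 against 1252, 1973 and 1598) were both lower. For each of these genes the 3 replicates were closer to each other than to the single library. Odc1, Plet1, Tmem176a and Tmem176b were also called against all 10 samples. Socs3 (1.62-fold), Furin (1.21-fold), Igfbp4 (1.55-fold) and Thbs1 (1.39-fold) lay outside all 10 without being called. Lgals3 and Fth1 did not, as TGFβ/IL-34/Jag1 with FICZ replicate 2 held them at 10753 and 59984, below the Jag1 only library.

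The filter removed genes that only the Jag1 only library held, because it asked for 2 samples. At least 10 normalized counts in that library and under 10 in each of the 10 others were found for 134 genes, against 24 to 81 genes for each of the others taken alone, and at least 50 for 11 genes against 0 to 5. Every other condition had replicates, so a gene particular to such a condition could reach 10 in 2 samples and go uncounted. The counts are therefore not on equal terms. Genes of the 11 are named here with their values known. Mmp9, a gelatinase of neutrophils and macrophages, was the highest of the 11 (961 against 0, 0 and 7.67). Gcm1, a transcription factor best known from the placenta, was at 357 against 2.28, 0 and 0. Gas6, a ligand of Mertk and its relatives, was at 60.2 against 0, 6.25 and 2.95, and Clec4a3, a myeloid lectin, at 102 against 9.33, 4.62 and 5.26. Also among them were Wnk2, Mest, Kcnq1, Zfp998, Aqp8 and Plb1.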
